A study of Mus musculus and Homo sapiens with 90 samples.

Results

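Consecutively numbered EH38D regions are candidate human regulatory sequences whose registry numbers differ by exactly 1 and which were placed in the same sub-library of a massively parallel reporter assay (MPRA). EH38D is the ENCODE registry's prefix for DNase hypersensitive sites of the human genome, stretches of open chromatin where regulatory proteins can reach the DNA. A region was taken as a member when the number above or below its own occurred in any table of its sub-library. This gave 23923 members among 103260 EH38D regions (23.2%), out of 113094 regions of all names when each sub-library is counted apart. They form 12942 pairs in 10981 runs of consecutive numbers. Of the runs, 9258 held 2 regions and 1723 held 3 or more, so that 1961 members belonged to 2 pairs.

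In an MPRA, each candidate sequence is joined to a reporter, and the RNA that carries its mark is counted against the DNA of the same construct. A ratio above that of the typical construct shows more RNA for its DNA than the typical region of the table gave, and a ratio below it less. Since this level is set by the regions of the table themselves, it does not show whether a sequence raised or lowered transcription by itself. Enhancers in the genome often stand in groups, in which neighbouring elements may share cell-type activity or act apart, but an MPRA reads every element alone on its construct. Whether neighbouring numbers lie next to each other in the genome could not be looked up, because no coordinates or sequences of these regions were used here.

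The libraries fell into 4 systems. Germ-free liver came from C57BL/6 mice labelled as germ-free, with 15 RNA and 15 DNA libraries over 5 sub-libraries. Conventional liver came from C57BL/6 mice with no treatment entry, also with 15 RNA and 15 DNA libraries over 5 sub-libraries. Hep3B, a human liver cancer line, has the genotype p53-null, although its source and cell line entries read HepG2, and was measured with 2 RNA libraries and 1 DNA library of sub-library 2. HepG2, a human liver cancer line labelled p53-WT, has 14 RNA libraries over 5 sub-libraries with 1 DNA library each. All 4 systems carried the human sequences, the mouse livers included, and neither age nor sex of the mice is given in the sources used here. The labels do not say which replicates came from separate animals or cultures, so p-values measure the spread between libraries, which may be technical.

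Total counts ranged between 2740171 and 25625463 per germ-free RNA library, 1172822 and 6627375 per conventional RNA library, 9394679 and 17696987 per Hep3B RNA library, and 1720314 and 8202279 per HepG2 RNA library. No region was listed with an RNA count below 10 in any library, so regions with little RNA are missing from a table and the values below describe listed regions only. Both regions of a pair were listed for 9217 of the 12942 pairs in germ-free liver, 6289 of the 12942 in conventional liver and 10163 of the 12942 in HepG2. In Hep3B, both were listed for 2605 of the 2824 pairs of sub-library 2. In germ-free liver sub-library 3 this was 32.2% of pairs, against 23.5% of all possible pairs of EH38D regions and 29.9% of those of members. The same 3 shares of sub-library 3 were 52.0%, 51.2% and 51.3% in conventional liver and 89.6%, 90.0% and 89.7% in HepG2. The effect of listing on the shares below was not tested. The shallowest case was conventional liver sub-library 2, which listed both regions of 135 pairs, against 2630 in germ-free liver. A mean DNA count of at least 10 then left 9213 pairs in germ-free liver and 10150 in HepG2, and took none from the other systems.

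The sub-libraries hold long blocks of neighbouring numbers. Ordered by number, 12887 of 12903 consecutive steps stayed within a sub-library, so pairs split between sub-libraries (16 steps) were too few to serve as a comparison. Numbers that follow each other at a distance of 1 were also more frequent than at a distance of 2 in every sub-library, with 2824 against 893 in sub-library 2. The comparisons below therefore set consecutive pairs against pairs at larger distances in number and against all possible pairs of the same table, whose exact average takes the place of pairs drawn at random.

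Members were called active more often than other EH38D regions. A region was called active, or low, when its RNA stood above, or below, its DNA relative to the other regions of the table at an adjusted p under 0.05 by edgeR's quasi-likelihood test. In germ-free liver, 6705 of 19705 tested members (34.0%) were active, against 29.5% of all tested EH38D regions and 28.0% of those without a neighbour. The corresponding shares were 28.7% of members in conventional liver against 26.3% of all, 29.9% in Hep3B against 23.9%, and 20.9% in HepG2 against 18.6%. Members had the higher share in 5 of 5 sub-libraries in germ-free liver, 4 of 5 in conventional liver, the 1 sub-library of Hep3B and 5 of 5 in HepG2.

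Low activity was called less often among members than among all EH38D regions. The share was 21.1% of members against 24.8% of all in germ-free liver, 19.9% against 21.6% in conventional liver, 13.04% against 13.3% in Hep3B and 10.9% against 12.9% in HepG2. In Hep3B the 2 shares were nearly equal. By sub-library, members were low less often than other EH38D regions in 5 of 5 in germ-free liver, 3 of 5 in conventional liver, the 1 of Hep3B and 4 of 5 in HepG2. The germ-free counts depended on single libraries, and without replicate 3 of each sub-library 4418 members were active and 2619 low, against 6705 and 4150 with all libraries. The shares of all EH38D regions without replicate 3 are not given here. Scaling by library size alone turned the balance of active and low members in 3 systems. It gave 4930 active and 5537 low members in germ-free liver, 2394 and 7929 in conventional liver, against 4484 and 3112 with TMM scaling, and 3328 and 3669 in HepG2, against 4387 and 2294. The shares of all EH38D regions under this scaling are not given here, so these counts do not set members apart from other regions.

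The share of active regions was highest at a distance of 1 and lowest beyond 50 in each of the 4 systems. It fell at every step in HepG2, and the shares at 3 to 10 and at 11 to 50 were close in each system. In germ-free liver the share was 34.0% at a distance of 1, 30.2% at 2, 28.0% at 3 to 10, 28.1% at 11 to 50 and 25.7% beyond 50. In HepG2 it was 20.9%, 18.9%, 18.0%, 17.8% and 16.9% over the same steps. Hep3B had the widest gap, with 29.9% at a distance of 1 and 18.7% beyond 50, and conventional liver had 28.7% and 24.4%. Members of runs of 3 were active more often than members of runs of 2 in all 4 systems, by 38.3% to 32.8% in germ-free liver, 30.0% to 28.5% in conventional liver, 33.5% to 28.7% in Hep3B and 22.9% to 20.3% in HepG2. Runs of 4 to 6 kept a share above that of runs of 2 in germ-free liver (37.8%), Hep3B (34.0%) and HepG2 (22.3%), but not in conventional liver (25.2%). The median mean DNA count of a member was close to that of other EH38D regions, at 212 against 219 in germ-free liver, 224 against 227 in conventional liver, 37 against 34 in Hep3B and 203 against 208 in HepG2.

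**Figure D1:**
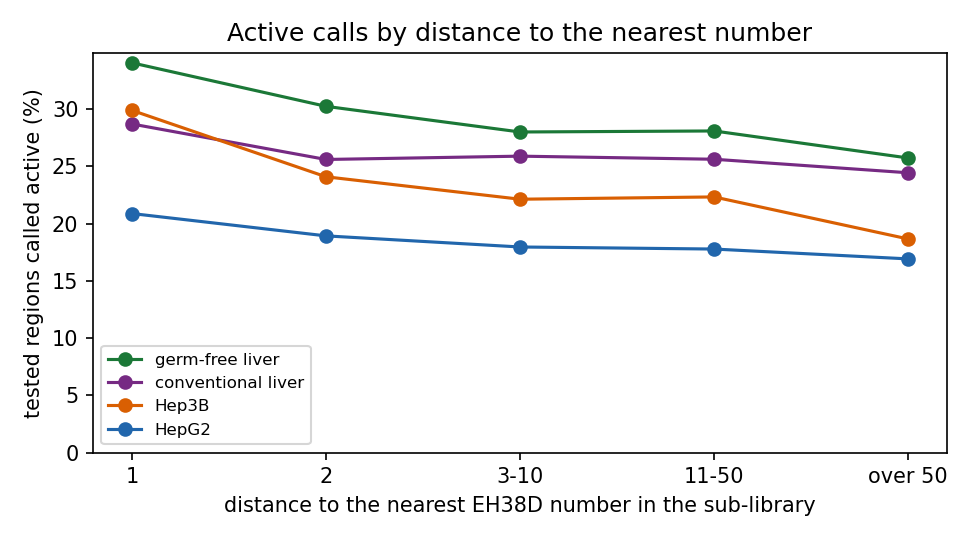
Share of tested EH38D regions called active (vertical axis, percent) by distance to the nearest EH38D number of the same sub-library (horizontal axis), 1 line per system. Regions at a distance of 1 are the members, and each system has its highest share there, 34.0% in germ-free liver and 20.9% in HepG2.

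The levels of paired numbers agreed only weakly. Agreement was measured as the correlation r of the log2 RNA/DNA values of the 2 regions, with each pair entered in both orders. Over the 5 tables of germ-free liver the median r of consecutive pairs was 0.0735, with a range of 0.0228 to 0.186. In conventional liver it was 0.0071 (-0.011 to 0.0861), in HepG2 0.0545 (0.0136 to 0.0748), and the single table of Hep3B gave 0.0709. These correlations are across 9213, 6289, 10150 and 2605 pairs in germ-free liver, conventional liver, HepG2 and Hep3B. Regions are not independent replicates, and values this small describe the tables without showing a shared level in any given pair.

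Other correlations of the same members were much larger. Between RNA libraries of the same table, the median r of members ranged between 0.687 and 0.896 in germ-free liver, 0.697 and 0.886 in conventional liver, and 0.767 and 0.924 in HepG2, and was 0.974 in Hep3B. Those libraries share their DNA average. The same member measured in another system also agreed better than its neighbour did in the same system. The median r over sub-libraries was 0.57 for germ-free against conventional liver (0.29 to 0.703), 0.63 for conventional liver against HepG2 (0.535 to 0.672), 0.41 for germ-free liver against HepG2 (0.264 to 0.443) and 0.743 for Hep3B against HepG2.

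Agreement did not fall steadily with distance. In germ-free liver the median r was 0.0673 at a distance of 2, 0.019 at 3 to 5, 0.0331 at 6 to 10, 0.0359 at 11 to 20, 0.029 at 21 to 50 and 0.0154 at 51 to 100, so each step beyond 2 lay below the values at 1 and 2. In HepG2 it was 0.024 at a distance of 2, 0.0347 at 6 to 10 and 0.0081 at 51 to 100, below the 0.0545 of consecutive pairs at each step. In Hep3B a distance of 2 gave 0.0729, slightly above consecutive pairs, and 51 to 100 gave 0.0099. In conventional liver a distance of 2 gave 0.0429, above the 0.0071 of consecutive pairs, and 51 to 100 gave 0.0046. DNA counts of paired numbers were correlated as well, with a median r of 0.0424 in germ-free liver, 0.0579 in conventional liver and 0.0721 in HepG2, and r of 0.111 in Hep3B. The highest r of activity was in germ-free liver sub-library 2, at 0.186, where the DNA r was 0.0814. In sub-library 5 the DNA r reached 0.168 in germ-free liver, 0.171 in conventional liver and 0.156 in HepG2, where the log2 RNA/DNA r was 0.135, 0.023 and 0.0706. The part of shared DNA representation in the agreement of activity was not tested.

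**Figure D2:**
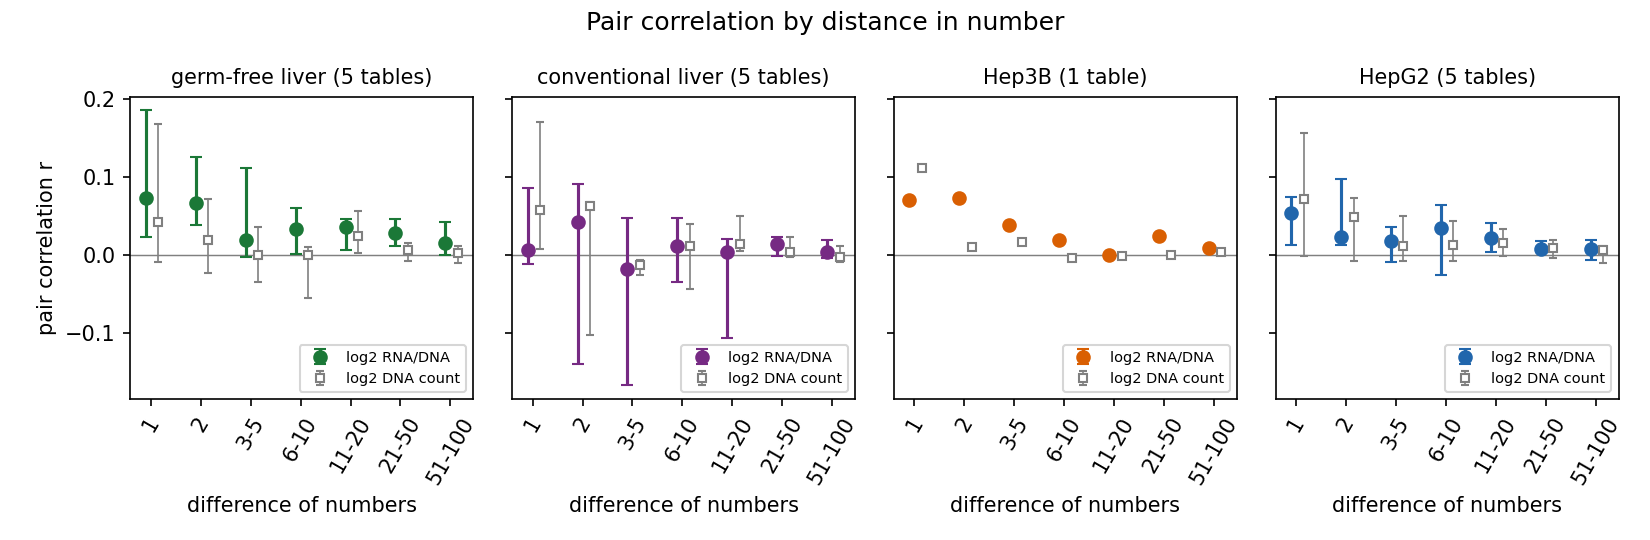
Pair correlation r (vertical axis) by difference of the EH38D numbers (horizontal axis), 1 panel per system. Filled circles are log2 RNA/DNA and open squares log2 DNA counts, as the median over tables with bars from the lowest to the highest table. Each system has its highest median r at a difference of 1 or 2. In conventional liver this is 0.0429 at a difference of 2, where the tables ran between -0.139 and 0.0913, and consecutive pairs have 0.0071.

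Paired numbers also lay slightly closer in activity than all possible pairs. The mean absolute difference of log2 RNA/DNA within consecutive pairs was 1.44 in germ-free liver, against 1.63 over all possible pairs of the same tables. It was 1.60 against 1.61 in conventional liver, 1.46 against 1.49 in Hep3B and 1.33 against 1.38 in HepG2. Over all possible pairs of members alone, weighted in the same way, it was 1.58 in germ-free liver, 1.61 in conventional liver, 1.51 in Hep3B and 1.36 in HepG2. Consecutive pairs lay below that average in 5 of 5 tables of germ-free liver, 3 of 5 of conventional liver, the 1 of Hep3B and 5 of 5 of HepG2. The exceptions were conventional liver sub-library 3, with 1.647 against 1.609, and sub-library 1, with 1.499 against 1.495.

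Both regions of a pair were called active more often than in all possible pairs of EH38D regions in each of the 4 systems. In germ-free liver, 1405 of 9213 pairs (15.3%) were active on both sides, against 9.10% of all possible pairs of tested EH38D regions and 12.3% of all possible pairs of tested members. In Hep3B the shares were 284 of 2605 (10.9%), against 5.73% and 8.93%, and in HepG2 574 of 10150 (5.66%), against 3.86% and 4.93%. In conventional liver 571 of 6289 pairs (9.08%) were active on both sides, against 7.67% of all EH38D pairs but 9.17% of member pairs. Set against pairs of members, the share was higher in consecutive pairs under each of the 10, 6 and 9 settings compared in germ-free liver, Hep3B and HepG2, and under 2 of 11 in conventional liver. These are descriptions without a test.

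Pairs with 1 active and 1 low region made up 12.3% of consecutive pairs in germ-free liver, against 15.6% of all possible pairs of EH38D regions and 15.4% of those of members. In HepG2 the shares were 4.75%, against 5.59% and 5.22%, and in conventional liver 12.9%, against 13.1% and 12.95%. In Hep3B the order turned with the set of pairs, at 7.26% against 6.36% of EH38D pairs and 7.80% of member pairs. It turned for pairs with both regions low as well. These were 5.62% of consecutive pairs in germ-free liver, against 6.74% of EH38D pairs and 4.85% of member pairs, and 1.73% in HepG2, against 2.04% and 1.39%. In conventional liver they were 4.90%, against 5.73% and 4.64%, while in Hep3B the 1.84% lay above both, at 1.77% and 1.70%. The germ-free count of 1405 pairs fell to 836 without replicate 2 and to 637 without replicate 3, which is 9.07% and 6.91% of consecutive pairs, against 7.50% and 5.49% of all possible pairs of members.

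**Figure D3:**
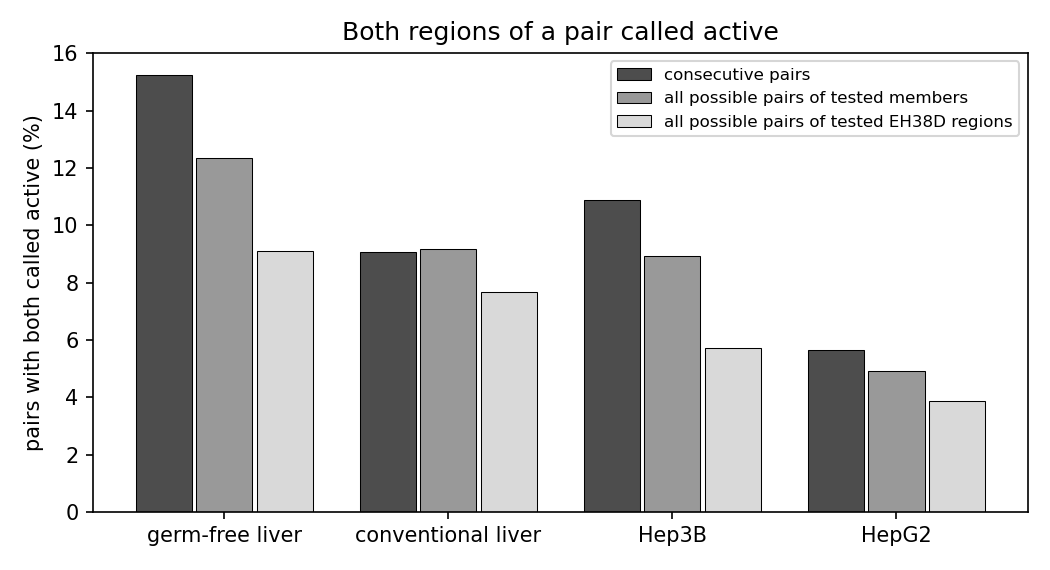
Percent of pairs with both regions called active (vertical axis) for 4 systems (horizontal axis). Dark bars are consecutive pairs, grey bars the exact share over all possible pairs of tested members and light bars that over all possible pairs of tested EH38D regions. The dark bar is the tallest in germ-free liver (15.3%), Hep3B (10.9%) and HepG2 (5.66%), and level with the grey bar in conventional liver (9.08% against 9.17%).

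Many consecutive pairs still differed in activity. The difference between the 2 regions of successive numbers was tested with edgeR, and was called at an adjusted p under 0.05 for 4485 of 9213 consecutive pairs in germ-free liver (48.7%), against 51.1% of successive pairs at any distance. The shares were 53.4% against 50.2% in conventional liver, 41.9% against 36.2% in Hep3B and 31.3% against 30.5% in HepG2. Against pairs at larger distances, the share was lower in each of the 5 sub-libraries of germ-free liver. It was higher in 4 of 5 sub-libraries of conventional liver, the 1 of Hep3B and 3 of 5 of HepG2, and higher over all sub-libraries together in these 3 systems. The median absolute fitted difference of consecutive pairs was 1.15 in germ-free liver, 1.25 in conventional liver, 1.13 in Hep3B and 1.08 in HepG2, on the log2 scale. At distances of 2 or more it was 1.30, 1.23, 1.13 and 1.10 in the same order. In Hep3B and HepG2 the higher called share thus did not go with a larger median difference. Without replicate 3, 2597 pairs (28.2%) were called in germ-free liver, against 31.04% of successive pairs at larger distances.

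The strongest pairs with both regions active are examples, chosen for the highest level of the lower member. In HepG2 sub-library 3, EH38D4504113 had log2 RNA/DNA of 4.64, 4.43 and 4.58 in the 3 RNA libraries, and EH38D4504114 had 4.45, 4.28 and 4.33. The fitted value of the second minus the first was -0.20 ± 0.40 (SE), which edgeR did not call (adjusted p = 0.751). In HepG2 sub-library 4, EH38D4841318 had 3.92, 3.96 and 3.94 and EH38D4841319 had 3.97, 4.05 and 4.01. They lay 0.07 ± 0.33 apart (SE), again not called by edgeR (adjusted p = 0.897). All 12 library values of these 4 regions lay well above 0, the level of the table's typical construct. This follows from how the pairs were chosen.

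In conventional liver sub-library 4, EH38D4868025 had 5.03, 5.45, 5.23 and 5.53 in the 4 RNA libraries, and EH38D4868026 had 4.89, 5.46, 4.63 and 5.35, so the libraries of the 2 regions overlapped. The second lay -0.22 ± 0.26 from the first (SE), with an edgeR adjusted p of 0.493, and mean DNA counts were 95.3 and 60.0. In sub-library 3 of the same system, EH38D6019537 had 4.46 and 4.55 and EH38D6019538 had 3.88 and 4.03. The second lay -0.55 ± 0.32 from the first (SE), with an edgeR adjusted p of 0.225.

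In germ-free liver the top pairs both came from sub-library 3. EH38D5866541 had 4.49, 4.78 and 2.68 in the 3 RNA libraries and EH38D5866542 had 3.49, 4.09 and 2.86, where the same library was lowest for both and edgeR called no difference (adjusted p = 0.314). EH38D5913982 had 3.30, 3.51 and 3.35 and EH38D5913983 had 3.33, 3.59 and 3.90, with no difference called (0.22 ± 0.37, SE; edgeR adjusted p = 0.638). In Hep3B the members of 1 of the 2 top pairs were called different. EH38D5508144 had 4.07 and 4.16 and EH38D5508145 had 2.83 and 2.95, both active but -1.22 ± 0.15 apart (SE; edgeR adjusted p = 0.0123). The other Hep3B pair, EH38D5754725 with 3.26 and 3.44 and EH38D5754726 with 3.59 and 3.65, rested on DNA counts of 25 and 34 in a single DNA library.

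The most unlike pairs were chosen among those that joined an active and a low region under adjoining numbers. In germ-free liver sub-library 5, EH38D5332335 had -6.33, -5.43 and -5.54 and EH38D5332336 had 3.17, 2.97 and 2.79. The difference was 8.71 ± 0.41 (SE; edgeR adjusted p = 2.88e-05), and the mean DNA counts were 1220 and 98.0. In germ-free liver sub-library 3, EH38D4533790 had -2.46, -3.46 and -1.42, while EH38D4533791 had 5.91, 5.75 and 5.80, 8.26 ± 0.58 apart (SE), with an edgeR adjusted p of 4.88e-05. In both pairs all libraries of the first region lay below 0 and all of the second above it, which follows from that choice. Without replicate 1, EH38D4533790 was no longer called low (adjusted p = 0.0669).

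In conventional liver, EH38D5884518 had -2.16 and -1.76 and EH38D5884519 had 6.04 and 6.65 in sub-library 3, 8.32 ± 0.40 apart (SE), with an edgeR adjusted p of 4.41e-05. In sub-library 1, EH38D4461278 had 6.51, 6.73, 6.49 and 6.06 and EH38D4461279 had -1.33, -1.88, -1.09 and -1.45, the second -7.88 ± 0.26 from the first (SE), with an edgeR adjusted p of 2.43e-10. Hep3B sub-library 2 held EH38D5750235 with 1.69 and 1.73 beside EH38D5750236 with -5.33 and -5.42, and EH38D5483962 with -2.93 and -2.46 beside EH38D5483963 with 4.28 and 4.39. In HepG2, EH38D2452755 of sub-library 4 had -1.98, -2.04 and -1.91 beside EH38D2452756 with 5.23, 5.33 and 5.23, and EH38D5457368 of sub-library 2 had 5.67, 5.50 and 5.41 beside EH38D5457369 with -1.29, -1.16 and -2.02. All 4 of these differences were between 7.02 and 7.27 in size, with edgeR adjusted p of 0.00385 in both Hep3B pairs and of 1.03e-11 and 3.17e-08 in the HepG2 pairs. EH38D5457369 was no longer called low without replicate 3 (adjusted p = 0.0861) or by the DESeq2 Wald test (adjusted p = 0.072).

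Germ-free and conventional liver were compared as the difference of log2 RNA/DNA between the systems. Of 13061 tested members, 2667 (20.4%) had a higher and 2492 (19.1%) a lower ratio in germ-free livers, against 19.1% and 20.6% of all EH38D regions. With library-size scaling the counts were 4709 higher and 1563 lower, and the shares of all EH38D regions under that scaling are not given here. Both regions of a pair were higher in 248 of 4470 pairs (5.55%), against 4.25% over all possible pairs of EH38D regions and 4.85% over those of members. Both were lower in 201 pairs (4.50%, against 4.79% and 4.23%) and called in opposite directions in 333 pairs (7.45%, against 8.88% and 8.78%). Pairs with both regions called thus moved in the same direction 449 times and in opposite directions 333 times. Without replicate 2 the counts were 218 and 192, and without replicate 3 they were 207 and 157. The shares over all possible pairs under these 2 settings are not given here.

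The pair with the largest shared rise was EH38D5128661 and EH38D5128662 of sub-library 5. EH38D5128661 had 3.97, -1.67 and 4.37 in germ-free libraries, against -0.76, -1.02 and -1.18 in conventional libraries, so 1 germ-free library lay below all conventional ones. Its difference of 4.73 ± 1.18 (SE; edgeR adjusted p = 0.00594) lost its call without replicate 1 (adjusted p = 0.0983) or replicate 3 (adjusted p = 0.116), and with a replicate block (adjusted p = 0.136). EH38D5128662 had 2.11, 1.45 and 2.61 in germ-free libraries against -0.96, -0.65 and -1.28 in conventional libraries, without overlap (3.21 ± 0.40, SE; edgeR adjusted p = 2.82e-05).

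The pair with the largest shared fall was EH38D5082156 and EH38D5082157, also of sub-library 5. EH38D5082156 had -2.76, -1.92 and -2.69 in germ-free libraries and 2.16, 2.78 and 2.13 in conventional libraries. EH38D5082157 had -3.63, -3.13 and -2.57 in germ-free libraries and 5.69, 5.57 and 5.52 in conventional libraries, so both regions were active in conventional liver and low in germ-free liver. The fitted differences were -4.64 ± 0.42 and -8.53 ± 0.45 (SE; edgeR adjusted p = 1.87e-06 and 2.64e-08).

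The largest opposite change was again in sub-library 5. EH38D5080146 had -3.84, -4.85 and -4.87 in germ-free libraries against -0.73, 0.61 and 0.22 in conventional libraries, a difference of -4.55 ± 0.52 (SE; edgeR adjusted p = 1.67e-05). Its neighbour EH38D5080147 had 3.23, 1.84 and 3.10 in germ-free libraries against -0.12, -2.33 and -0.66 in conventional libraries, a difference of 3.74 ± 0.63 (SE; edgeR adjusted p = 0.00037). Sub-library 5 held 184 of the pairs called in the same direction and 167 of those called in opposite directions. In that sub-library 54.5% of members and 55.0% of all EH38D regions were called, against 14.9% and 17.5% in sub-library 3. Library preparation and germ-free status cannot be told apart here, because no label gives a preparation batch that holds both livers.

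Pair agreement itself was higher in germ-free than in conventional liver. Over the pairs listed in both tables of a sub-library, the mean r per RNA library was 0.069 in germ-free and 0.0181 in conventional liver, averaged over 5 sub-libraries. The difference of 0.0509 had a permutation p of 0.00107 (two-sided, 100000 permutations of the system labels of 15 and 15 RNA libraries within sub-libraries). Germ-free liver was higher in 5 of 5 sub-libraries, by 0.0621, 0.0211, 0.0108, 0.0699 and 0.0905 in sub-libraries 1 to 5. Libraries of a table share their DNA average, and with the sub-library as the unit the exact permutation p was 0.0625, the smallest that 5 sub-libraries allow.

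The libraries did not overlap in sub-libraries 4 and 5. In sub-library 4 the germ-free libraries lay between 0.0812 and 0.0912, against 0.0008 to 0.0304 in conventional libraries, over 1221 pairs. In sub-library 5 they lay between 0.118 and 0.136, against 0.0203 to 0.0526, over 1161 pairs. In sub-libraries 1, 2 and 3 the ranges of the 2 livers overlapped. Both values are small beside the r between RNA libraries of the same member.

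**Figure D4:**
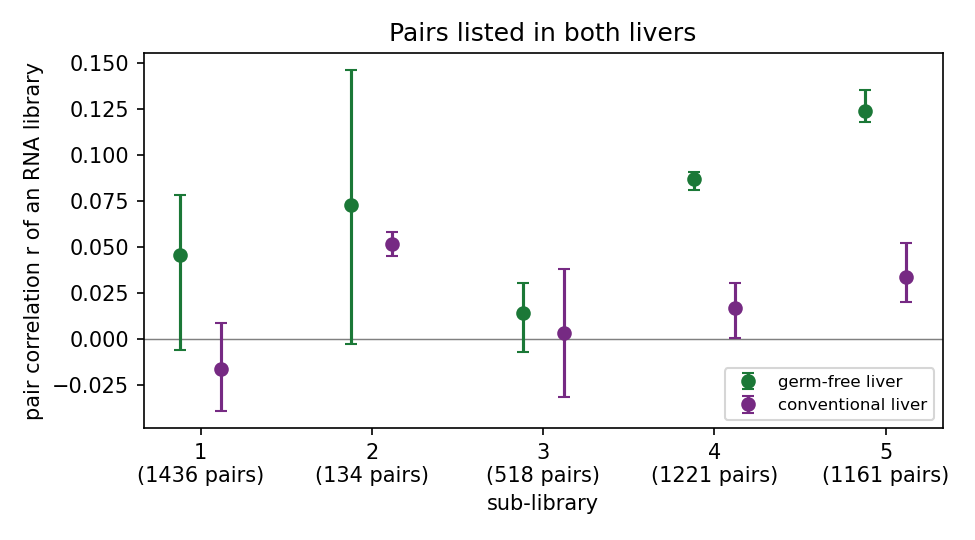
Pair correlation r of log2 RNA/DNA per RNA library (vertical axis) by sub-library (horizontal axis), over pairs listed in both livers. Points are means over the libraries of germ-free liver (green) and conventional liver (purple), and bars run from the lowest to the highest library. Germ-free liver lies higher in 5 of 5 sub-libraries, without overlap in sub-libraries 4 and 5.

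Between conventional liver and HepG2, 1725 of 14227 members (12.1%) were higher and 1020 (7.17%) lower in conventional liver, against 13% and 6.85% of all EH38D regions. Library-size scaling turned this balance, with 897 members higher and 3203 lower. The shares of all EH38D regions under that scaling are not given here, so the turn is not a trait of members. Both regions were higher in 95 of 5220 pairs (1.82%), against 1.82% of all possible pairs of EH38D regions and 1.57% of those of members. Both were lower in 47 pairs (0.900%, against 0.552% and 0.597%), and 84 pairs were called in opposite directions (1.61%, against 1.94% and 1.82%). The leading shared rise was EH38D5256671 of sub-library 1, with 3.67, 4.21, 3.47 and 3.65 in conventional liver against 0.44 and -0.09 in HepG2. Its neighbour EH38D5256672 had 5.09, 5.73, 4.98 and 5.60 against 0.76 and 1.24. The fitted differences of the 2 regions were 3.54 ± 0.33 and 4.34 ± 0.34 (SE; edgeR adjusted p = 1.52e-06 and 2.81e-07).

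The leading shared fall rested on 2 conventional libraries. EH38D5874490 of sub-library 3 had -2.33 and -0.98 in conventional liver against 0.90, 1.29 and 0.95 in HepG2, and EH38D5874491 had -0.04 and -1.26 against 2.11, 2.37 and 1.88. The fitted differences were -2.48 ± 0.63 and -2.55 ± 0.59 (SE; edgeR adjusted p = 0.022 and 0.0151), and the call of EH38D5874490 was lost without replicate 3 (adjusted p = 0.0587). The leading opposite pair was EH38D4367890 of sub-library 1, with -0.74, -0.24, -0.37 and -1.07 in conventional liver against 2.00 and 2.24 in HepG2. Its neighbour EH38D4367891 had 3.48, 3.89, 3.53 and 3.73 in conventional liver against -0.14 and 1.31 in HepG2. Here each region was the active one in a different system.

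Between Hep3B and HepG2, 337 of 4787 members (7.04%) were higher and 267 (5.58%) lower in Hep3B, against 5.51% and 5.94% of all EH38D regions. With library-size scaling the counts were 541 higher and 185 lower, and the shares of all EH38D regions under that scaling are not given here. Only 34 of 2408 pairs had both regions called, 17 in the same direction and 17 in opposite directions. Both were higher in 0.457% of pairs, against 0.304% of all possible pairs of EH38D regions and 0.494% of those of members, and both lower in 0.249%, against 0.353% and 0.310%. Opposite calls made up 0.706%, against 0.656% and 0.786%, so these shares lay near the background. These counts rest on few libraries, and leaving out 1 replicate number gave between 7 and 104 pairs in the same direction and between 5 and 76 in opposite directions. EH38D5778655 had 0.66 and 0.73 in Hep3B against 5.87, 5.70 and 5.69 in HepG2, and its neighbour EH38D5778656 had -1.95 and -1.85 against 1.19, 0.99 and 0.84. The differences were -5.08 ± 0.17 and -2.94 ± 0.18 (SE; edgeR adjusted p = 1.04e-05 and 0.000109). The leading shared rise was EH38D5564942, with 2.57 and 2.74 in Hep3B against -0.94, -0.41 and -0.76 in HepG2, beside EH38D5564943, with 3.05 and 3.00 against 0.44, -0.13 and 0.28. The leading opposite pair was EH38D5740826, with 1.15 and 1.21 in Hep3B against -0.52, -0.55 and -0.37 in HepG2. Its neighbour EH38D5740827 had -1.63 and -1.66 in Hep3B against -0.06, 0.03 and 0.04 in HepG2. These 4 regions were called at edgeR adjusted p between 0.00108 and 0.00631, and EH38D5740826 lost its call without replicate 2 (adjusted p = 0.0815). The Hep3B DNA count of EH38D5564942 was 17.0. The median DNA count of a member in Hep3B was 37, and since each cell line table has 1 DNA library, the error of the DNA counts is not in these tests.

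Of 3698 pairs tested in germ-free liver, conventional liver and HepG2 alike, 45 (1.22%) had both regions active in all 3 systems, against 0.851% of all possible pairs of EH38D regions tested in all 3 and 1.05% of those of members. The highest sum belonged to EH38D4868025 and EH38D4868026, the pair that led conventional liver. EH38D4868025 had 3.74, 2.08 and 2.77 in germ-free libraries and 4.96, 4.96 and 4.89 in HepG2 libraries. EH38D4868026 had 4.52, 3.54 and 4.14 in germ-free libraries and 2.12, 1.79 and 2.5 in HepG2 libraries. The members were not called different in conventional liver, yet the second minus the first was 1.21 ± 0.33 in germ-free liver and -2.80 ± 0.46 in HepG2 (SE; edgeR adjusted p = 0.0183 and 5.82e-05). The 2 regions thus stood in opposite order in these systems. The germ-free call was lost without replicate 2 (adjusted p = 0.123) or replicate 3 (adjusted p = 0.103).

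The longest run of consecutive numbers held 6 regions, EH38D5698023 to EH38D5698028, and the same 6 were placed in all 5 sub-libraries. Each of them was therefore measured up to 5 times per system, in sub-libraries with their own DNA and RNA libraries. The regions differed in where they were active. EH38D5698023 and EH38D5698024 were active in germ-free liver, EH38D5698026 stood highest in HepG2, and EH38D5698027 was low in conventional liver and HepG2.

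EH38D5698023 had mean log2 RNA/DNA of 1.77, 2.56, 1.52, 2.68 and 3.69 in sub-libraries 1 to 5 of germ-free liver and was called active in all 5. In conventional liver it had 0.40, 0.32 and 1.31 in the 3 sub-libraries that listed it, and was active in 1. In HepG2 it had -1.61, -1.48 and -1.19 in 3 sub-libraries and was low in 2, and in Hep3B it had -2.07. The germ-free and HepG2 sub-libraries did not overlap, and their means differed by 3.87 (exact permutation adjusted p = 0.0589). EH38D5698024 followed it in germ-free liver, with 1.00, 2.94, 1.42, 2.57 and 3.03, active in 5 of 5. It averaged 0.02 ± 0.73 in conventional liver and 0.09 ± 0.53 in HepG2 (SD, n = 5 sub-libraries each), where EH38D5698023 was low. EH38D5698024 was also active in 1 of 5 conventional sub-libraries, at 0.99 in sub-library 4. In Hep3B it was active at 0.82, on a DNA count of 29. Within this pair no difference was called in any sub-library of either liver, which does not show that the regions are alike. The second minus the first ran between -0.77 and 0.38 in germ-free liver and between -0.81 and -0.08 in conventional liver. In HepG2 the second lay 1.54 above the first on average. The difference was called there in 2 of 3 sub-libraries, and the 0.90 of sub-library 1 was not.

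EH38D5698025 had means over sub-libraries of 0.48 in germ-free liver, 0.01 in conventional liver and -0.28 in HepG2. Single sub-libraries ran between -0.47 and 1.11 in germ-free liver, where it was active in 3 of 5, and between -0.94 and 0.33 in HepG2. EH38D5698026 had -1.36, -0.54 and -1.33 in 3 germ-free sub-libraries, 0.61, 1.40 and 0.50 in 3 conventional ones, and 1.72, 0.84, 0.95 and 1.2 in 4 of HepG2. It was the lowest of the run in germ-free liver and the highest in HepG2, yet no sub-library called it active or low. EH38D5698027 averaged -0.17 ± 0.87 in germ-free liver, -1.69 ± 0.34 in conventional liver and -0.90 ± 0.28 in HepG2 (SD, n = 5 sub-libraries each), and was low in 2, 4 and 3 of them and active in 1 germ-free sub-library. The step between EH38D5698026 and EH38D5698027 turned round by system. The second lay above the first by 1.37 in germ-free liver, and below it by the values of -2.46 in conventional liver and -1.96 in HepG2, and the difference was called in 2 of 3, 2 of 3 and 4 of 4 sub-libraries. EH38D5698028 had means between -0.60 and -0.19 in the 4 systems.

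Tested within each sub-library by edgeR across all regions, EH38D5698024 was higher in germ-free than in conventional liver in 4 of 5 sub-libraries, by 1.42 to 3.26, with adjusted p between 6.92e-05 and 0.0382, and in sub-library 1 the difference of 1.22 was not called (edgeR adjusted p = 0.0535). EH38D5698027 was higher in germ-free liver in 4 of 5, by 0.96 to 2.18, with 0.91 not called in sub-library 3 (edgeR adjusted p = 0.283). EH38D5698023 was higher in 2 of 3, by 1.38 and 1.72, with 1.48 not called in sub-library 3 (edgeR adjusted p = 0.169). EH38D5698026 went the other way, lower in germ-free liver in the 1 sub-library that allowed the test (-1.97, edgeR adjusted p = 0.0112). EH38D5698025 was called in 0 of 4 sub-libraries and EH38D5698028 in 0 of 1. EH38D5698023 was also higher in conventional liver than in HepG2 in both sub-libraries that allowed the test, by 2.08 and 2.54. With sub-libraries as units, the exact permutation test of germ-free against conventional liver gave p = 0.00794 for EH38D5698024 and for EH38D5698027 (two-sided, 5 against 5, the smallest p possible). Adjusted over the 33 such tests of regions placed in all 5 sub-libraries, both came to 0.0524, and none of the 33 passed 0.05.

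**Figure D5:**
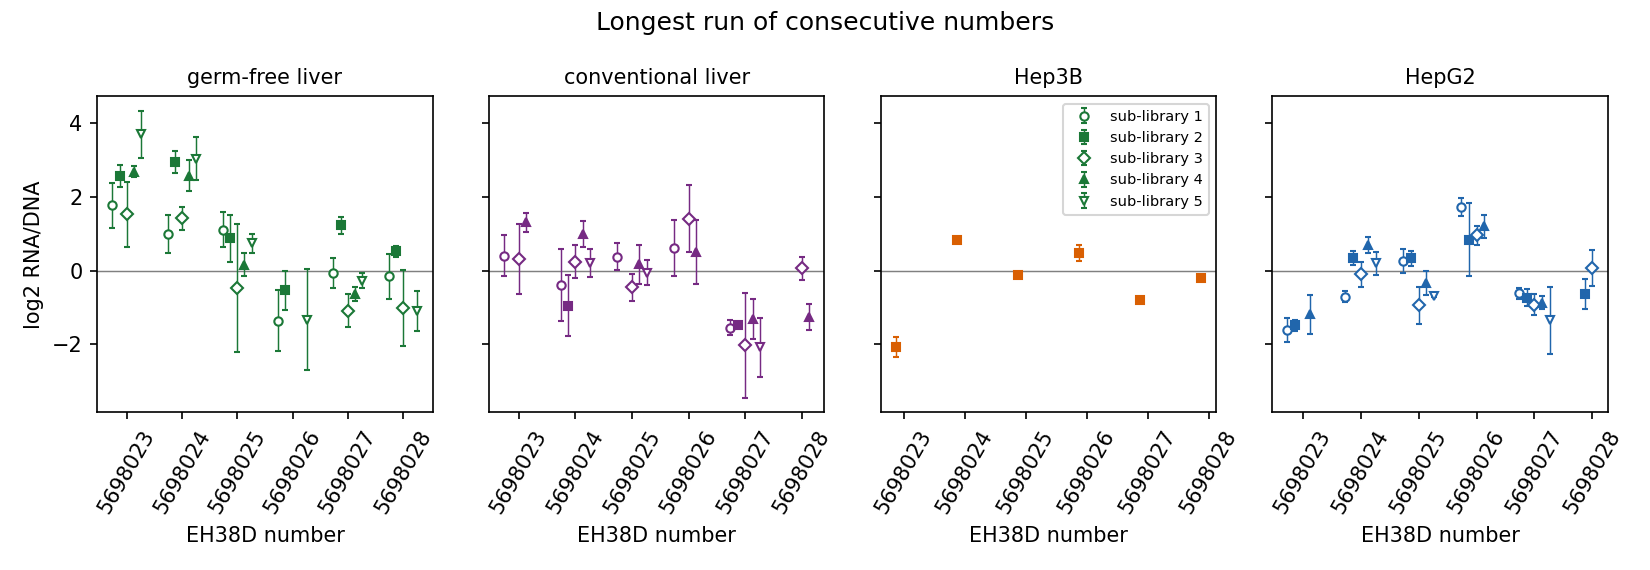
Log2 RNA/DNA (vertical axis) of the 6 regions of the longest run by EH38D number (horizontal axis), 1 panel per system. Points are means over the RNA libraries of a sub-library and bars are their SD, with a symbol for each sub-library. EH38D5698023 and EH38D5698024 lie above 0 in all 5 germ-free sub-libraries, and EH38D5698026 is the highest region in HepG2.

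Besides the run, 3 more pairs were placed in all 5 sub-libraries, for 8 such pairs over 12 regions. EH38D3158852 had 3.26, 2.95, 2.61, 3.02 and 3.37 in the 5 sub-libraries of HepG2 and was active in all 5. It averaged 2.69 ± 1.24 in conventional liver (SD, n = 4 sub-libraries), 0.33 ± 1.07 in germ-free liver (SD, n = 5) and had 5.74 in Hep3B, on a DNA count of 17.0. By edgeR it was lower in germ-free than in conventional liver in 2 of 4 sub-libraries, by -3.857 and -3.715. Its neighbour EH38D3158851 stayed below 0 in every table that listed it, with means of -1.64 in germ-free liver, -1.18 in conventional liver, -0.89 in Hep3B and -0.46 in HepG2. It was called lower in germ-free than in conventional liver in 1 of 2 sub-libraries. The second region exceeded the first in 5 of 5 HepG2 sub-libraries by 2.78 to 3.87, each called different, and in 3 of 3 conventional ones by 3.09 to 5.06. In germ-free liver the differences ran between -0.19 and 5.65, called in 2 of 3 sub-libraries, so that in 1 the second region lay slightly below the first.

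EH38D4580800 had 2.27, 2.02, 1.52, 2.14 and 2.26 in HepG2, active in all 5 sub-libraries. It had a mean of 0.48 ± 0.46 in germ-free liver (SD, n = 4 sub-libraries), without overlap with HepG2 (exact permutation adjusted p = 0.0524), and was active in 2 of the 4. In conventional liver it had 1.82, -1.97, 0.81 and 1.42 in sub-libraries 1, 3, 4 and 5, and was active in 3. None of these 4 sub-libraries called it different between conventional liver and HepG2, and it was lower in germ-free than in conventional liver in 1 of 3. In Hep3B EH38D4580800 had 0.40 and was not called active, and it was lower there than in HepG2 (-1.63, edgeR adjusted p = 0.0076). Its neighbour EH38D4580801 had a HepG2 mean of 0.14 ± 0.28 (SD, n = 4 sub-libraries) and was active only in Hep3B among the tables that listed it, at 1.67. That value rests on a DNA count of 11.0 in a single DNA library. The difference to HepG2 was not called (edgeR adjusted p = 0.0717). Both regions of the pair EH38D2419693 and EH38D2419694 were low or not called in every table. In HepG2 EH38D2419694 was low in 4 of 5 sub-libraries, with a mean of -1.75 ± 0.54 against -0.53 ± 0.39 for EH38D2419693 (SD, n = 5 sub-libraries each), and the difference was called in 1. By edgeR EH38D2419694 was lower in germ-free than in conventional liver in 2 of 3 sub-libraries, and EH38D2419693 was called in 0 of 2. The difference within the pair of EH38D4580800 and EH38D4580801 was called in 3 of 4 HepG2 sub-libraries.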

How the data were processed

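The members, pairs, tests and named-pair rules were chosen with earlier results of these data known. The authors deposited raw counts for each library, one value to a region. The submitters' processing notes name BWA, hg38, DESeq2 1.42.1 and edgeR 4.0.16, with no role for each. Per the labels' protocols, RNA libraries were made with a UMI primer, but whether the counts are of UMIs or reads is not given in the sources used here. Of the series, 16 reporter tables with 82 libraries were used, and 8 RNA-seq libraries were not.

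Each table was fitted on its own with edgeR 4.0.16 (R 4.3.3): TMM factors, a mean DNA count of at least 10, and robust quasi-likelihood tests of RNA against DNA, of the second against the first region of successive numbers, and of the RNA/DNA ratio between systems. Benjamini-Hochberg adjustment ran over all tested regions of a system or comparison, sub-libraries together, at 0.05. SE is the absolute log2 value over the square root of F. Printed per-library values are log2 ratios to the mean DNA level, with a pseudocount of 0.5. Scripts were tested on simulated data. HepG2 and Hep3B have 1 DNA library per table, whose error is not in the tests. In germ-free liver sub-library 3, header replicate numbers differ from sample titles, and libraries were matched by name.

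Named pairs were the 2 with the highest lower member and the 2 most different active and low pairs per system, the leading shared and opposite pairs per comparison, the longest run and the highest sum over 3 systems. Apart from the longest run, they were chosen by the same values that are printed for them. Their adjusted p-values are therefore examples and no separate support. Same-numbered RNA and DNA libraries of the livers deviated with correlations between -0.0467 and 0.0341. Values near 0 gave no sign that the numbers pair samples, but cannot exclude it. The main fits used no pairing, and a replicate block was an alternative. Alternatives used limma 3.58.1 and DESeq2 1.42.0. Other computations used Python 3.11.15, numpy 2.4.6, pandas 2.3.3, scipy 1.17.1 and matplotlib 3.10.9.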

Additional observations from a re-analysis of the deposited data

Results flagged for a closer look

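The 9 leading pairs that moved between systems are listed here because the effect of each region differed between 2 systems by a test of the difference itself. For germ-free against conventional liver, the differences on the log2 scale were 4.73 for EH38D5128661, 3.21 for EH38D5128662, -4.64 for EH38D5082156, -8.53 for EH38D5082157, -4.55 for EH38D5080146 and 3.74 for EH38D5080147. All 6 belong to sub-library 5, where 54.5% of the tested members were called.

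For conventional liver against HepG2 they were 3.54 for EH38D5256671, 4.34 for EH38D5256672, -2.48 for EH38D5874490, -2.55 for EH38D5874491, -2.75 for EH38D4367890 and 2.91 for EH38D4367891. For Hep3B against HepG2 they were 3.34 for EH38D5564942, 2.82 for EH38D5564943, -5.08 for EH38D5778655, -2.94 for EH38D5778656, 1.64 for EH38D5740826 and -1.68 for EH38D5740827. No stray library was found for the named regions measured in groups of 4 libraries, and smaller groups were not examined.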

How the results depend on the processing

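Counts in this section stand without the shares over all EH38D regions or all possible pairs, so they show only how calls moved. Unequal numbers of higher and lower calls alone raise the count of pairs in the same direction. Library-size scaling, which drops the TMM factors, moved the most counts. It gave 804 germ-free, 146 conventional and 321 HepG2 pairs with both regions active, 2394 active and 7929 low members in conventional liver, and 3669 low members in HepG2. In germ-free against conventional liver it gave 4709 higher and 1563 lower members and 816 pairs in the same direction. In conventional liver against HepG2 it gave 897 higher and 3203 lower members, with 395 pairs in the same and 150 in opposite directions, and in Hep3B against HepG2 541 higher members and 36 pairs in the same direction. It turned the sign of uncalled levels of EH38D5080146 in conventional liver (-0.80) and of EH38D5256671 (-0.17), EH38D5564943 (-0.16) and EH38D5740827 (-0.35) in HepG2. A mean DNA count of at least 50 left Hep3B with 627 active and 373 low members, 49 pairs active on both sides, 216 pairs that differed, and, against HepG2, 153 lower members and 9 opposite pairs, since fewer regions were tested. The DESeq2 Wald test gave 144 Hep3B pairs active on both sides. The cause of the other moves was not tested.

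Leaving out 1 replicate number gave ranges of 4418 to 6433 active members, 2619 to 4126 low members, 637 to 1325 pairs active on both sides and 2597 to 4347 differing pairs in germ-free liver. For germ-free against conventional liver the ranges were 207 to 391 pairs in the same and 157 to 336 in opposite directions, and for conventional liver against HepG2 82 to 150 and 59 to 127. For Hep3B against HepG2 they were 163 to 776 higher members, 197 to 580 lower members, 7 to 104 pairs in the same and 5 to 76 in opposite directions, with a lone library assumed to vary like the other groups. The uncalled levels of EH38D5080146 in conventional liver ranged between -0.061 and 0.407, and those of EH38D5740827 in HepG2 between -0.0158 and 0.0282. Conventional liver sub-libraries 2 and 3, Hep3B sub-library 2 and HepG2 sub-library 1 could not be fitted without replicate 1 or 2 in the region and pair tests, and the other tables were compared.

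A replicate block gave 1170 germ-free and 523 conventional pairs active on both sides and 382 and 268 pairs in the same and opposite directions between the livers, none moved by over 1.5 times. Pair agreement in germ-free minus conventional liver was 0.0657 by ranks (permutation p = 7e-05), 0.0584 without sub-library 2 (permutation p = 0.00027), 0.041 without sub-library 5 (permutation p = 0.0157) and 0.0509 with the sub-library as the unit (exact permutation p = 0.0625). Of these, the value without sub-library 5 and that with the sub-library as the unit were chosen after seeing the data. Hep3B is limited by its shallow single DNA library, and conventional liver sub-library 2 by its few listed pairs.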
